A study of Caenorhabditis elegans with 2 samples.

Results

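Nuclear hormone receptors are transcription factors that bind DNA through a zinc-finger domain and, in many cases, are switched by a small lipophilic ligand such as a steroid or a fatty acid. Caenorhabditis elegans carries an unusually large family of them, most of which descend from an ancestor related to vertebrate HNF4, and the receptors with known roles govern fat metabolism, detoxification, moulting and developmental timing. ATFS-1, the factor precipitated here, is the bZIP transcription factor that moves to the nucleus when mitochondrial import fails and turns on the mitochondrial unfolded protein response. The receptor peaks were the rows of the deposited ATFS-1 peak list whose gene name started with nhr- or was daf-12, unc-55, odr-7, sex-1 or fax-1. They numbered 17 of 1005 peaks, and each carried 1 receptor name. All 17 names began with nhr-, and no row carried daf-12, unc-55, odr-7, sex-1 or fax-1.

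Both libraries came from wild-type worms raised from the egg on food that silences spg-7, which encodes a mitochondrial protease, and both were whole-worm lysates taken at the L4 larval stage after about 48 h. In the test library chromatin was precipitated with an antibody against ATFS-1, and the control library was the same kind of lysate carried through without antibody. Each condition had 1 library, so no value below has a replicate check and no test over samples could be made, and worms without spg-7 silencing were not analysed here. The depth after duplicate removal was 10992796 tags with antibody and 10583049 without. Tags are aligned reads. Fold enrichment divides the antibody signal at a peak by the level that the caller expected there from the control. The score is a log10 transform of the caller's p-value and rises as that p-value falls. All are the authors' values and served here to describe and rank peaks within the list. Positions are those of the list, and the sources used here do not name its genome build.

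The receptor peaks were of middling strength, with a short tail of strong ones. Their fold enrichment ran from 2.51 to 7.48 with a median of 3.70, beside a median of 3.26 over all 1005 peaks. Of the 17, 12 lay above the list's median fold (background 49.8%), 4 reached 4-fold (background 26.4%) and 3 reached 5-fold (background 13.6%). By score 9 of 17 lay above the median of the list (background 50.0%), and by antibody tags 7 of 17 did (background 49.9%). The shares at 4-fold and above and by score were therefore near those of the whole list. The receptor peaks were slightly shorter, with a median length of 1440 bp against 1555 bp, and 1 of 17 reached 2000 bp (background 31.8%).

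**Figure D1:**
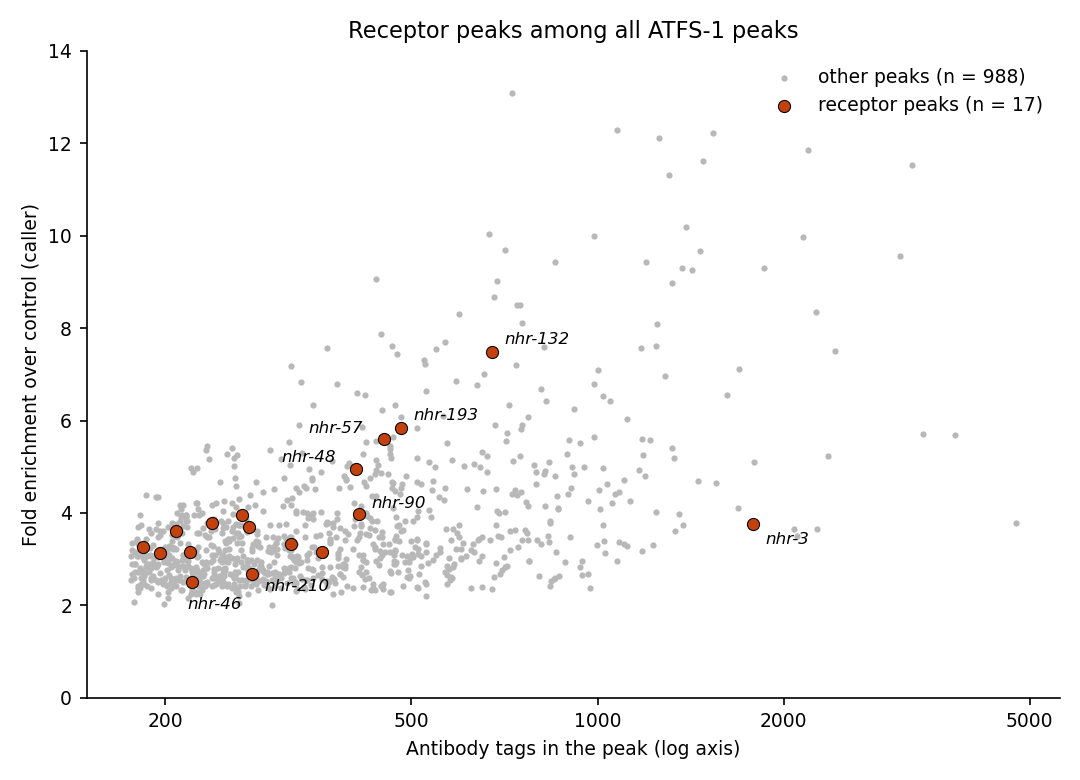
Fold enrichment by the caller against antibody tags in the peak (log axis) for the 17 receptor peaks (orange) and the other 988 peaks (grey), with each point 1 peak of the single antibody library. Most receptor peaks lie among the bulk of the list, nhr-132, nhr-193 and nhr-57 stand at 5-fold or more, and nhr-3 holds 1783 tags at 3.77-fold.

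The strongest receptor peak was at nhr-132 (locus name R11G11.1), on chromosome V from 533191 to 535162. It held 675 tags at 7.48-fold with a score of 1109.95, which placed it 40th by fold and 48th by score of 1005. Per kb it held 342 tags, the most of the receptor peaks. Its false discovery rate, which the caller obtains by calling peaks with the libraries swapped, was 9.8%, the tenth highest in the list, although its score was among the best. nhr-132 and the next gene described, nhr-193, belong to the expanded worm family and are given no role here.

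The peak at nhr-193 (F57G8.6), on chromosome V from 16341321 to 16342992, held 481 tags at 5.83-fold, with a score of 584 and a false discovery rate of 6.67%. The peak at nhr-57 (T05B4.2) followed with 451 tags at 5.59-fold, a score of 481.51 and a rate of 5.52%, on chromosome V from 4130616 to 4132278. nhr-57 is known as a gene induced under low oxygen through the hypoxia factor HIF-1 and is widely used as a readout of that pathway. The peak nearest to that of nhr-57 lay 326003 bp away, against a median distance of 27036 bp for all peaks. On chromosome V the medians were 50645.5 bp for receptor peaks and 40257 bp for other peaks. The nhr-40 and nhr-226 peaks also stood far from others, at 226233 bp and 225192 bp.

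Of the 15 receptors whose families are shared with flies and vertebrates, nhr-48 (ZK662.3) was the only gene with a row. It belongs to the same branch as nhr-8 and the steroid receptor gene daf-12. Its peak, on chromosome X from 15706713 to 15708152, held 407 tags at 4.96-fold with a score of 404.04, and its false discovery rate of 5.42% was the lowest of the receptor peaks. The single conserved gene made 6.67% of that group, and the divergent receptors with a row on their gene's chromosome were 15 of 259, or 5.79%. With 1 gene in the smaller group these shares cannot be told apart.

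The nhr-3 peak (H01A20.1) differed from the others in shape. It spanned 6582 bp on chromosome X from 14556744 to 14563325, ranked 10th of 1005 by length and 16th by tags with 1783, but stood at only 3.77-fold. Its score of 1154.04 was the highest of the receptor peaks, and its false discovery rate of 10.87% was exceeded by 1 other peak of the list. The peak was longer than the annotated nhr-3 gene, which measures 2920 bp, so it reached beyond that gene whatever its exact placement. The same held for nhr-132, whose peak of 1972 bp compares with a gene of 1802 bp, and for none of the other 14 receptors whose chromosome matched. How many peaks of the whole list are longer than their gene was not counted, so these cases cannot be called unusual.

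A sixth peak of this stronger group carried nhr-90 (ZK488.2) together with pqn-97, on chromosome V from 609854 to 611422, with 411 tags at 3.98-fold and a score of 340.69. The 6 peaks at nhr-132, nhr-193, nhr-57, nhr-48, nhr-3 and nhr-90 were those at or above the upper quartile of the list by score (6 of 17, background 25.1%). The same 6 were at or above the upper quartile of tags per kb, at 262 to 342 tags per kb. The other 11 held 167 to 213 tags per kb, against a list median of 204 and a lower quartile of 184.5. Of these, nhr-46, nhr-40 and nhr-210 lay below that quartile.

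The remaining receptor peaks were modest. In order of fold they were nhr-65 (3.95-fold, 266 tags), nhr-104 (3.78-fold, 238 tags), nhr-79 (3.70-fold, 273 tags), nhr-58 (3.61-fold, 208 tags), nhr-47 (3.32-fold, 319 tags) and nhr-40 (3.27-fold, 184 tags). nhr-40 is known for a role in embryonic and muscle development, and its peak lay on chromosome X from 2591268 to 2592317. The nhr-104 peak lay on chromosome IV from 4787956 to 4789115. Below the list's median fold lay nhr-226 (3.15-fold, 359 tags), nhr-22 (3.15-fold, 219 tags), nhr-1 (3.13-fold, 196 tags), nhr-210 (2.68-fold, 276 tags) and nhr-46 (2.51-fold, 221 tags). The peak of nhr-226 lay on chromosome V from 2294377 to 2296064, that of nhr-22 on II from 6447890 to 6449034 and that of nhr-46 on IV from 5753232 to 5754553. The weakest by score was nhr-46 at 51.55, with 13 peaks of the list below it and a lowest listed score of 50.06. nhr-40 (56.22) and nhr-1 (57.81) were also at or below the lower quartile of scores (3 of 17, background 25.1%). None of the 17 had a false discovery rate at or under 5% (background 3.18%), and 4, at nhr-3, nhr-132, nhr-79 and nhr-65, had a rate over 8% (background 5.17%).

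**Figure D2:**
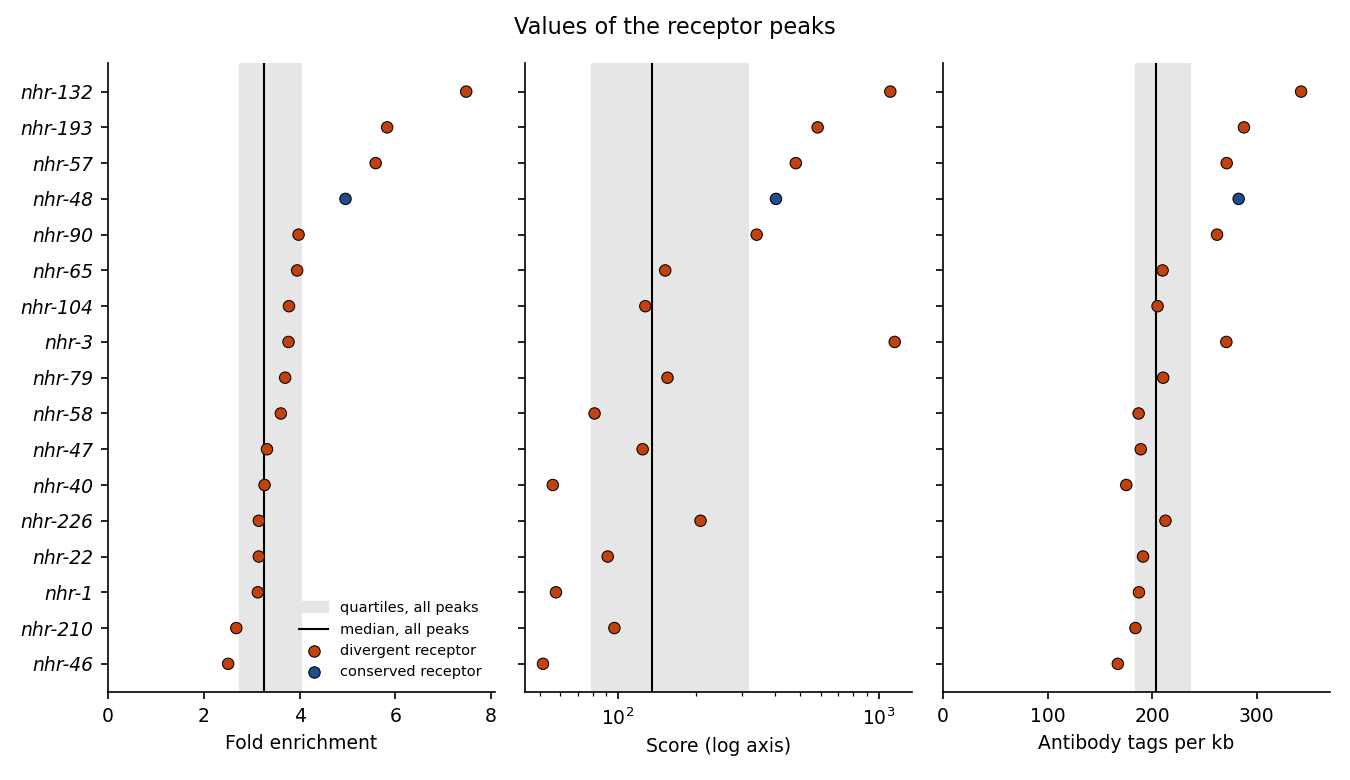
Fold enrichment (left), score on a log axis (middle) and antibody tags per kb (right) of each receptor peak, ordered by fold, with each point the value of 1 peak in the single antibody library. The grey band and black line give the quartiles and median of all 1005 peaks. The 4 peaks of highest fold lie beyond the band in all 3 measures, nhr-90 and nhr-3 lie beyond it in score and tags per kb only, and nhr-46 lies below it in all 3.

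The name nhr-1 was at odds with the position of its row. The peak lay on chromosome II, from 7337055 to 7338100, whereas the RefSeq gene table places nhr-1 on chromosome X. In the order of genes in that table, 29 protein-coding genes lay between C30G12.2 and kcc-3, the genes named at the peaks on either side, and 1 of them was a receptor, nhr-21. Which gene the row stands for cannot be told from the list, and the row is left out of the shares by chromosome below. Of the 1033 names in the list, 943 were found in the gene table and 90 were not, and 13 of the 943 belonged to a gene on a chromosome other than that of their peak. For the other 16 receptors the chromosome matched, and each gene also lay between the genes named at the flanking peaks in the table's order.

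The gene table held 288 receptor genes, 274 of them protein-coding and 14 pseudogenes. By name alone 17 of 288 (5.90%) had a row. Of the 274 protein-coding ones this was 6.20%, against 4.59% of all 19971 protein-coding nuclear genes. With the chromosome required to match, 16 of the 274 protein-coding receptors (5.84%) had a row, against a background of 4.53%. The 90 names not found in the gene table could not count towards a background, whereas all 17 receptor names were found. The background shares of genes here and below may therefore be somewhat low. The share of receptors was near that of all genes. Counted the same way among peaks at or above the list's median fold, 12 of the 274 were named (4.38%, background 2.33%), and among those at or above its median score 9 were (3.28%, background 2.37%). Peaks with a single gene name gave 12 receptors (4.38%, background 3.70%), and peaks at a false discovery rate of at most 5% gave none (background 0.145%). None of the 14 receptor pseudogenes had a row, and the share over all pseudogenes was not counted. Other regulator families were counted the same way. In these, 2 of 64 homeobox genes with ceh- names (3.12%), 3 of 25 helix-loop-helix genes with hlh- names (12%) and 5 of 17 bZIP genes with zip- or atf- names (29.4%) had a row. On these counts the receptors lay between the homeobox and the helix-loop-helix genes. With 2 to 5 genes with a row in each other family, that order is uncertain and was not tested.

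Chromosome V holds most worm receptor genes, and 10 of its 167 protein-coding receptors had a row (5.99%), against 2.88% of all protein-coding genes of that chromosome. Outside chromosome V 6 of 107 receptors had one (5.61%), against a background of 5.08%. These 6 were 3 of 27 on X (nhr-3, nhr-40 and nhr-48, background 5.13%), 2 of 33 on IV (nhr-104 and nhr-46, background 4.45%) and 1 of 15 on II (nhr-22, background 3.89%). None of 24 receptors on I (background 5.67%) and none of 8 on III (background 6.74%) had a row. The median gene length on V was 2097.5 bp for the 10 receptors with a row and 2105 bp for all 167. It was 1744 bp for all protein-coding genes of V, so receptors there were longer than the genes of their background. The part of gene length in these shares was not tested. Over all chromosomes the median was 3406 bp for the 16 with a row and 2278.5 bp for the 258 without. Genes with a row were also longer in the list as a whole, with a median of 2901 bp against 2006 bp for all protein-coding genes.

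**Figure D3:**
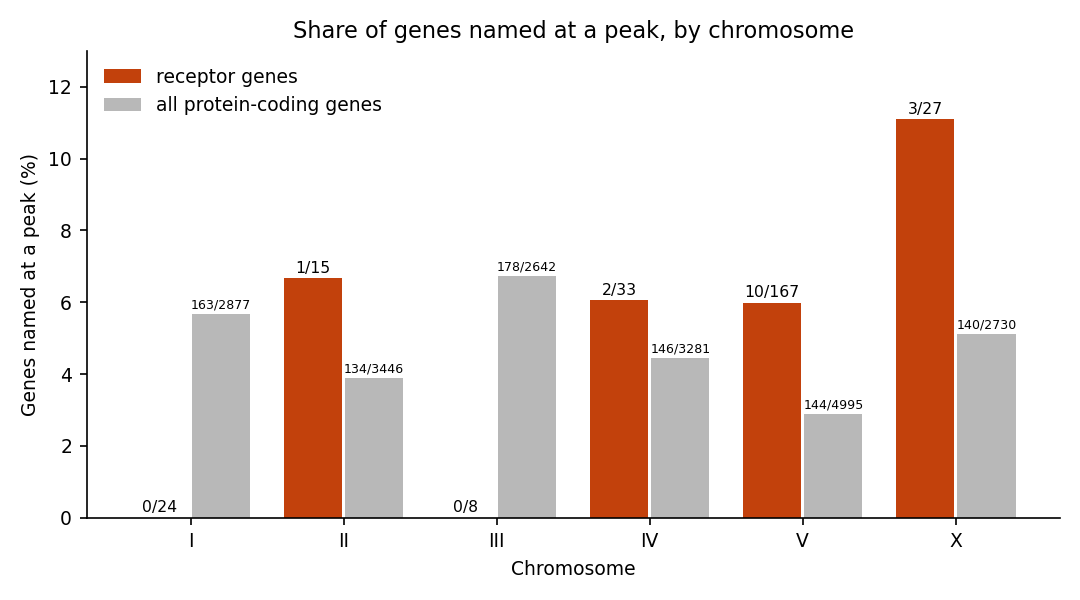
Percentage of protein-coding receptor genes (orange) and of all protein-coding genes (grey) named at a peak on their own chromosome, with the counts above the bars. Chromosome V shows 5.99% of receptors against 2.88% of all its genes, from 10 receptors, and the counts on the other chromosomes are 0 to 3.

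Set against their own surroundings on chromosome V, receptors had a larger share with a row than the genes beside them, a difference that was not tested. The nearest gene on either side that is not a receptor was taken for each of the 167. The 173 distinct genes so obtained had a median length of 1798 bp, against 2105 bp for the 167 receptors. Of the 173 genes, 3 had a row (1.73%). The 3 were cyp-33D3, dnj-19 and srr-2, and each shared its row with a receptor. cyp-33D3, of the cytochrome P450 family, shared the peak of nhr-65 (Y17D7A.3, chromosome V, 18838469 to 18839735). dnj-19, a DnaJ-type co-chaperone gene, shared that of nhr-47 (C24G6.4, 5504051 to 5505737), and srr-2 shared that of nhr-79 (T26H2.9, 19211925 to 19213221). In the gene table each pair was adjacent. With nhr-90, 4 of 17 receptor peaks carried a second name (background 9.95%), and to which gene of a pair such a peak belongs cannot be told from the list. The sources used here do not say how the authors assigned names to peaks, so the part of that step in these shares was not tested.

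The first part of chromosome V held 4 receptor peaks in immediate succession, with no other peak between them. They were nhr-210, nhr-58, nhr-132 and nhr-90, and together they spanned 92945 bp from 518478 to 611422. The peaks of nhr-58 (531719 to 532830) and nhr-132 lay 360 bp apart, and 17 of the 999 distances between consecutive peaks of the list were no longer than this. Both genes are also neighbours in the gene table. The nhr-58 peak was the weaker of the pair, at 3.61-fold and 208 tags against 7.48-fold and 675 tags. In the table's order the stretch from nhr-210 to nhr-90 held 30 protein-coding genes, of which 6 were receptors, and the receptors without a row there were nhr-155 and nhr-251.

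**Figure D4:**
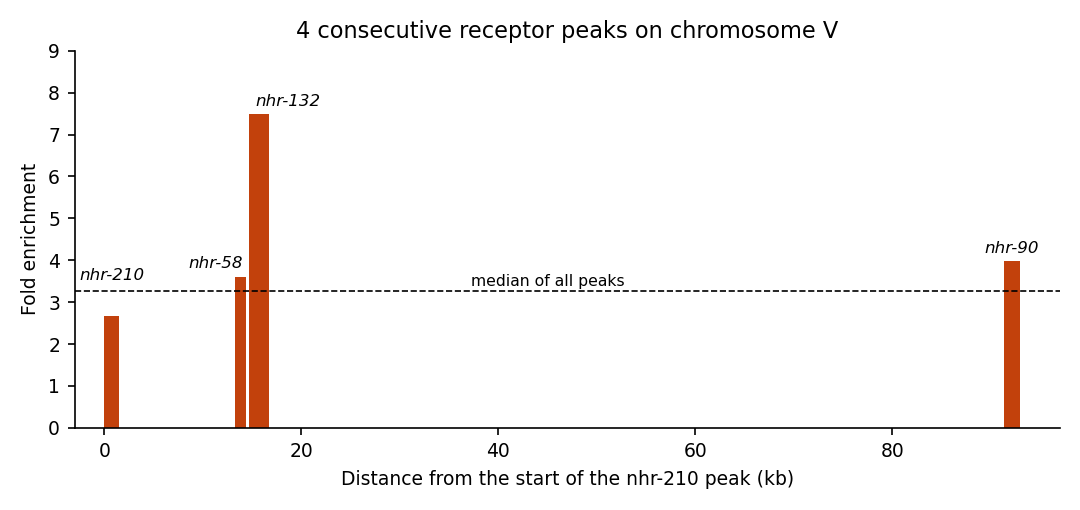
Fold enrichment of the 4 consecutive receptor peaks on chromosome V against distance in kb from the start of the nhr-210 peak, with bar widths to scale as peak lengths and the dashed line at the median fold of all peaks, 3.26. The bars of nhr-58 and nhr-132 nearly touch, and nhr-132 is the tallest at 7.48-fold.

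Of the 17 receptor peaks, these 4 followed another receptor peak or preceded it in the list, and the other 13 did not. Receptor genes themselves often lie side by side. On chromosome V 107 of the 167 receptors (64.1%) had another receptor as an adjacent gene, and of the 10 with a row 4 did. These 4 were nhr-65, nhr-226 and the adjoining pair of nhr-58 and nhr-132. Of the 258 receptors without a row on their own chromosome, 12 had an adjacent gene named at a peak (4.65%), against 7.89% of all protein-coding genes without a row. Most receptors lie on chromosome V, where 2.88% of genes were named at a peak, against 5.08% elsewhere. These shares therefore come from unlike mixes of chromosomes, and they were not compared within chromosome V.

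Of 35 receptors listed by name, namely the 15 conserved ones and 20 others, 4 had a row by name (11.4%, background 4.59%). They were nhr-48, nhr-57, nhr-40 and nhr-1, and 3 of 35 (8.57%, background 4.53%) were left when the chromosome had to match. The list was chosen with earlier results of these data known, so these shares are no test against the background. The other 31 of the 35 had none, as is the case for most genes. Among those of lipid metabolism these were nhr-49 and nhr-80, regulators of fatty acid desaturation and breakdown, together with nhr-13 and nhr-66. Also without a row were nhr-10 and nhr-68, regulators of the propionate shunt, nhr-114, which is linked to vitamin B12 and diet, nhr-62 of dietary restriction, nhr-86, and nhr-45, which has been tied to detoxification during mitochondrial dysfunction. nhr-28, nhr-35, nhr-64, nhr-69, nhr-88, nhr-112 and odr-7, a receptor gene of an olfactory neuron, had none either. Of the conserved receptors, those of moulting (nhr-23 and nhr-25), developmental timing (daf-12 and nhr-85), xenobiotic response (nhr-8), sex determination (sex-1) and neuronal identity (unc-55 and fax-1) were without a row, as were nhr-6, nhr-41, nhr-67, nhr-91, nhr-111 and nhr-239. A gene without a row did not reach the caller's threshold under its name, which does not show that the factor is absent there.

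Genes that work with the receptors were also read from the list. Of 10 cofactor genes 4 had a row (40%, background 4.53%). They were din-1, a corepressor of DAF-12 (4.72-fold, 1103 tags, chromosome II, 11632312 to 11636388), cbp-1, the CBP/p300 acetyltransferase (4.57-fold, 398 tags), pqn-51 (3.43-fold, 471 tags) and ubc-9, the SUMO-conjugating enzyme (3.33-fold, 311 tags). mdt-15, the Mediator subunit that partners NHR-49, gei-8, hda-1, smo-1, mdt-6 and sur-2 had none. The cofactor list was short and chosen with earlier results of these data known. Its share of 40% was not tested and cannot be read as an excess over the background. Of the 9 genes of the DAF-12 ligand pathway found in the gene table, emb-8, which supplies electrons to cytochrome P450 enzymes, had a row (4.91-fold, 821 tags), and daf-9, the P450 gene that makes the ligand, did not.

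Among 13 genes listed here as targets of NHR-49 or NHR-80, mostly of lipid metabolism, the desaturase gene fat-6 alone had a row under its listed name (3.78-fold, 839 tags). acs-2, fat-5 and fat-7 had none. A row named gei-7 and fbox-72 (4.10-fold, 1686 tags, chromosome V, 723807 to 728459) carried an older name of icl-1, another of the 13, and was not counted because that name was not in the gene table. Of 12 moulting genes lin-42, the worm period gene that times moults, had a row, at 2.34-fold and 282 tags. With 1 gene each, these shares of 11.1%, 7.69% and 8.33% rest on too few genes to be set against 4.53%.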

How the data were processed

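Chromatin immunoprecipitation followed by sequencing was described from 1 deposited peak list. Per the labels' protocols, worms were fixed in 11% formaldehyde and their DNA was sheared to 500 to 1000 bp. Per the file headers, MACS 1.4.2 called peaks on single libraries with a p cutoff of 1e-05, an effective genome size of 90000000 bp and at most 1 tag per position. The submitters' processing notes also name BWA 0.7.5 and Picard. The file headers gave 18329145 antibody tags and 13281029 control tags, of which 40.0% and 20.3% were removed as duplicates. The 2 libraries came from different sequencing project folders, per the file headers, so project and antibody cannot be told apart. For each peak the authors deposited a fold enrichment ratio, a false discovery rate in percent, a score and a count of antibody tags. The heading of the score column was lost to a spreadsheet error, and its meaning was read from the caller's column order and the lowest value.

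Names were split at the slash, stripped of comments and matched without regard to case to symbols and locus names of the RefSeq gene table of assembly WBcel235. That table was used for names, chromosomes, gene order and gene lengths only. Matching was tested on simulated names drawn from that same table with only case or chromosome changed. That check does not cover older or altered names. No test was run, because each condition had 1 library, and shares of genes are set beside those of all protein-coding nuclear genes. Python 3.11.15 with pandas 2.3.3 was used. The members and lists were chosen with earlier results of these data known. Every receptor with a row was named, as were the conserved receptors, those of known role and the genes of the cofactor, ligand, target and moulting lists with a row. Genome sequence, promoters and motifs were not used here, so the planned count of motif letters in promoters was not made. Tag depth limits which peaks pass the caller, and precision beyond that is unknown with 1 library each.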

Additional observations from a re-analysis of the deposited data

How the results depend on the processing

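No paired analysis was possible because there was a single library with antibody and a single library without, which also left no replicate to omit. Of the 17 receptor genes named at peaks, 9 remained when peaks below the median score were dropped. Among all protein-coding genes named at a peak of their own chromosome, 474 of 905 remained under that cut. When only a false discovery rate up to 5% was allowed, 0 receptors and 29 of the 905 genes remained. The 1 conserved receptor, nhr-48, was also lost in that setting and its count was 0. Few peaks, 32 of 1005, are left there by construction. Other counts of receptors stayed between 12 and 17, and nhr-48 was kept in the other settings. Cuts at a median also drop much of the list by construction, and at the median fold 12 receptors and 466 of the 905 genes remained. The median fold of 3.70 became 3.98 when peaks below the median score were dropped (9 peaks), 3.61 with single-name peaks (13 peaks) and 3.735 with nhr-1 left out, a choice made after seeing the data. The median fold of all peaks under the score cut was not computed, so the rise to 3.98 cannot be read as a trait of receptor peaks. Expressed as antibody tags per kb the median of the receptor peaks was 209.9, against 204 for all peaks.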
